A study of Homo sapiens with 12 samples.

Results

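The endothelial genes, markers of the cell layer that lines blood vessels and the heart, were followed through 12 RNA-seq libraries made during cardiac differentiation of H1, an embryonic stem cell line of human origin. The genes were chosen by symbol, 10 of the 61806 genes in the table: PECAM1, CDH5, ESAM, KDR, FLT1, TEK, TIE1, ERG, EGFL7 and VWF. Earlier results of these data were known when they were chosen. Each symbol matched 1 row, and all 10 passed the filter on low counts that left 19505 genes for testing. All cells were of wild-type genotype, and all received CHIR-99021, which activates WNT signaling, and then insulin before Day 2. The static group, NP-IWP2, was never passaged and was given IWP2, an inhibitor of WNT secretion, between Day 2 and Day 4. The other treatments were both passaged on Day 2, which means that the cells were detached and plated again, P-DF into DF medium without IWP2 and P-IWP2 with it. The study states for its later experiments that Y27632, an inhibitor of ROCK that helps detached cells survive, was added at this step, and the labels do not mention it. Each treatment had 2 libraries on Day 12 and 2 on Day 16. No label says that the libraries of a group came from separate cultures, so the p-values measure the spread between libraries, which may be technical, and 1 cell line was used.

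Endothelial cells arise from mesoderm, which also gives rise to the heart muscle. In developing vessels, VEGF ligands act through the receptor KDR (VEGFR2), while FLT1 (VEGFR1) binds the same ligands and holds much of them away from KDR. Angiopoietins act through TEK (TIE2), which works together with its relative TIE1. The cells are held together by the junction proteins CDH5 (VE-cadherin), PECAM1 (CD31) and ESAM. ERG is an ETS-family transcription factor of endothelial cells, EGFL7 is a secreted protein of the vessel wall whose gene hosts the microRNA MIR126, and VWF is the clotting factor stored by endothelial cells and platelets. KDR is also a marker of mesoderm and of early cardiovascular progenitors, and so is less restricted to endothelial cells than CDH5 or TIE1.

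The counts of a library summed to 14885589 to 19176239, with a median of 16452289. Levels are given as FPKM, the authors' read count scaled by exon length and by the total count of the library. A count of 0 allows up to 3 counts, or 0.156 to 0.202 CPM (a count scaled by the library total), and this limit covers counting error only. Log2 fold changes, standard errors (SE) and adjusted p-values are from edgeR's quasi-likelihood test, and a gene was called at an adjusted p under 0.05 over all genes tested. In counts of genes, fell and rose mean called lower and called higher. The 2 libraries of a group correlated at 0.985 to 0.991 across genes on the log2 scale, except for the P-IWP2 libraries of Day 12, which correlated at 0.917. One of these, the library labelled P-IWP2 replicate 5 on Day 12, stood apart: its epicardial markers summed to 156 FPKM and its fibroblast markers to 766 FPKM, against 25.1 and 47.4 FPKM in replicate 6. Its cardiomyocyte markers summed to 2203 FPKM, the lowest of the 12 libraries, which ranged up to 9011 FPKM. Whether this library carries the right label was not tested, and it bears on every P-IWP2 value of Day 12. All libraries shared 1 estimate of the spread, so the distance between these 2 libraries widened the error of every comparison, and the calls are given with all 12 libraries and without replicate 5, a choice made after the data were seen. Because RNA was taken from whole cultures, fewer endothelial cells and less RNA per cell cannot be told apart.

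The 4 receptor kinases took different courses in static culture, as described below, so their promoters were set side by side. Promoter sequences, from 250 bases before to 50 bases after the start of transcription, were taken from RefSeq (GRCh38.p14) for 6 of the 10 genes, with 11 windows in all. The windows shown lie at chr1:43300732-43301031 on the plus strand for TIE1, chr9:27108975-27109274 on the plus strand for TEK, chr13:28495079-28495378 on the minus strand for FLT1 and chr4:55125546-55125845 on the minus strand for KDR. Capitals mark AGGAAG or CGGAAG, searched on both strands as the core of ETS-family sites. The shorter run GGAA was not searched.

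TIE1: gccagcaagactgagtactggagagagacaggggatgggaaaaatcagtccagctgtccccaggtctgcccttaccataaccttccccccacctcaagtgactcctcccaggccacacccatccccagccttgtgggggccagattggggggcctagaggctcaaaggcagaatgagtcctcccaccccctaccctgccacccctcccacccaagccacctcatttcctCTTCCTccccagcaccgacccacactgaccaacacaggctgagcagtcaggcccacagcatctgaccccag
TEK: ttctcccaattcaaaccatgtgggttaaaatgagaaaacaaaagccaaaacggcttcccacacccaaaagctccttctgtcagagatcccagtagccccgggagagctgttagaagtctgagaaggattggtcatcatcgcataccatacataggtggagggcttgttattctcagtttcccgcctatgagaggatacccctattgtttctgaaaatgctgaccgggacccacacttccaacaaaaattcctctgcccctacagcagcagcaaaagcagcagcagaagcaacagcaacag
FLT1: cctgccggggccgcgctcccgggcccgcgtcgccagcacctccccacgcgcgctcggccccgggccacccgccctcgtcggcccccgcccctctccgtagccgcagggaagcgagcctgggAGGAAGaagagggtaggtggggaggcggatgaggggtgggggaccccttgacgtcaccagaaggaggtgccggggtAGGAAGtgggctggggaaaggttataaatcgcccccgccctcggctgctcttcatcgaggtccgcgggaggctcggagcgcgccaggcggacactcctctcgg
KDR: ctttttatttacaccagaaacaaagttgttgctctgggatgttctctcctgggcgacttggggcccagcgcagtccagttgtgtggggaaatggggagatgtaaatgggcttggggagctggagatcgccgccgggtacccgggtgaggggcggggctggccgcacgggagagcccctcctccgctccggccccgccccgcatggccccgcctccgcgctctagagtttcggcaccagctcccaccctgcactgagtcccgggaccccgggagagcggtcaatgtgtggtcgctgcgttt

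The TIE1 window held 1 such core and the FLT1 window 2, while the TEK and KDR windows held 0. The shorter run GGAA, which was not counted, occurs in both on at least 1 strand. EGFL7 had cores in both of its windows, and ERG in 2 of its 4, which overlap and hold the same site. In all, 6 of the 11 windows had at least 1 core, beside 46.9% of the 35116 promoter windows in the table, and 2 or more cores were found in 16.1% of them. The GATA core AGATAA was found in 3 of the 11 windows, 1 of TEK and 2 of ERG that overlap each other, beside 10.3% of all windows. A match is a run of letters in this window and does not show binding.

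In static culture, most of these genes were lower on Day 16 than on Day 12. TIE1, ESAM, CDH5 and PECAM1 were between 13.4-fold and 58.8-fold lower, ERG 8.78-fold, KDR 4.26-fold and VWF 4.16-fold lower by their summed counts. TEK and FLT1 stayed within 1.23-fold of their Day 12 level. Counts of genes whose groups do not overlap use TMM-scaled CPM throughout. On that scale, both Day 16 libraries lay below both Day 12 libraries in 8 of the 10 genes, all but TEK and FLT1. Of all genes tested, 32.4% did so. With all 12 libraries in the model, 0 of the 10 genes were called in this comparison, in which 1.98% of genes were called and 1.10% called lower. At an unadjusted p under 0.05 the same edgeR test had 6 of them, and DESeq2 called 3 (TIE1, ESAM and CDH5). For calls, shares of all genes were computed only for edgeR's adjusted p, with all libraries and without Day 12 P-IWP2 replicate 5. Counts by unadjusted p, by DESeq2 or in other settings have no share beside them and are not compared with all genes. Leaving out Day 12 P-IWP2 replicate 5, a library outside this comparison, 7 of the 10 genes fell, with 17.1% of genes called and 7.91% called lower. The number called was also 7 when replicate 6 was left out instead, and 0 when any 1 of the other 10 libraries was. The median log2 fold change of the 10 genes was -2.49 in both models, and that of all genes tested 0.00. The log2 fold change of all 10 genes was below 0 in both models. The genes were chosen with earlier results of these data known, so the comparison with all genes is no independent check.

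**Figure D1:**
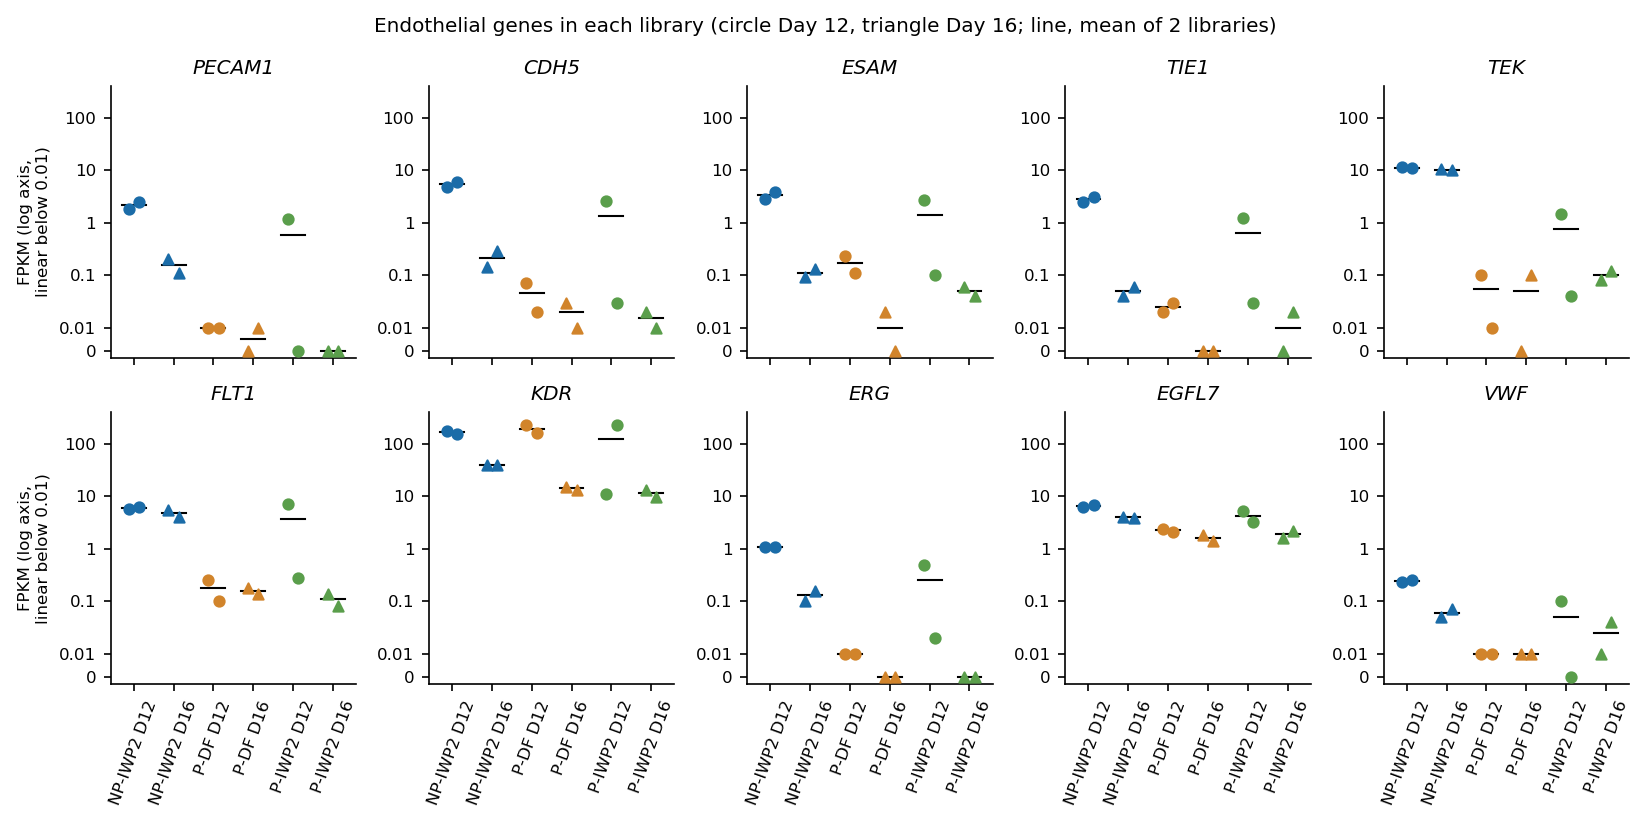
FPKM of the 10 genes (log axis, linear below 0.01) in each of the 12 libraries, by treatment and day, with a line at the mean of each group. PECAM1, CDH5, ESAM, TIE1 and ERG were above 1 FPKM in both static Day 12 libraries and at or below 0.29 FPKM in both static Day 16 libraries, while TEK stayed between 10.05 and 11.48 FPKM in static culture.

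Of the junction genes, CDH5 (chr16:66366622-66404784, plus strand) encodes the cadherin of the endothelial adherens junction. It stood at 4.73 and 6.05 FPKM in the static Day 12 libraries and at 0.14 and 0.29 FPKM in those of Day 16. Its count went from 514 and 602 to 16 and 28, a 26.1-fold difference (95% exact interval for counting error, 19.3 to 36.1). CDH5 had a log2 fold change of -4.57 ± 1.23 (SE), with an adjusted p of 0.0929 with 12 libraries and 2.63e-06 without P-IWP2 replicate 5.

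PECAM1 (chr17:64319415-64413776, minus strand), an adhesion molecule at endothelial cell borders, stood at 1.84 and 2.50 FPKM on Day 12 and at 0.20 and 0.11 FPKM on Day 16. The groups did not overlap, and the summed count was 13.4-fold lower on Day 16 (9.82 to 18.6). The log2 fold change of PECAM1 was -3.64 ± 1.31 (adjusted p = 0.183), and without P-IWP2 replicate 5 the adjusted p was 3.76e-05. ESAM (chr11:124752583-124762290, minus strand), a protein of endothelial tight junctions, stood at 2.78 and 3.79 FPKM on Day 12 and at 0.09 and 0.13 FPKM on Day 16, or 145 and 181 counts against 5 and 6. Its log2 fold change was -4.78 ± 1.13, with an adjusted p of 0.0648 with 12 libraries and 2.04e-05 without that one. All 3 junction genes thus passed the test in the second model and none in the first. A gene on the opposite strand of ESAM reached 11 counts in a library, and whether the counting used strand is not given in the sources used here.

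Of the receptors, TIE1 (chr1:43300982-43323108, plus strand) had the largest difference. It stood at 2.42 and 3.10 FPKM on Day 12 and at 0.04 and 0.06 FPKM on Day 16, which is 290 and 340 counts against 5 and 6, or 58.8-fold (32.7 to 118). The log2 fold change of TIE1 was -5.73 ± 1.29, with an adjusted p of 0.0639, and of 4.45e-06 without P-IWP2 replicate 5. TEK (chr9:27109141-27230174, plus strand), the partner of TIE1 and the receptor of angiopoietins, stood at 11.5 and 10.9 FPKM on Day 12 and at 10.3 and 10.1 FPKM on Day 16. Its log2 fold change was -0.02 ± 0.82 (adjusted p = 0.993), and -0.02 ± 0.23 without P-IWP2 replicate 5 (adjusted p = 0.961). The 2 days did not overlap in FPKM and overlapped once the libraries were scaled by TMM.

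FLT1 (chr13:28300346-28495145, minus strand), the decoy-like VEGF receptor, stood at 5.6 and 6.13 FPKM on Day 12 and at 5.37 and 4.05 FPKM on Day 16. Its log2 fold change was -0.19 ± 0.90 (adjusted p = 0.930), and -0.19 ± 0.21 without P-IWP2 replicate 5 (adjusted p = 0.580). FLT1, too, overlapped between days only after TMM scaling. KDR (chr4:55078481-55125595, minus strand), the main signaling receptor of VEGF, was the most abundant of the 10 genes, at 177 and 156 FPKM on Day 12. On Day 16 it stood at 39.3 and 39.2 FPKM, 4.26-fold lower by counts (4.16 to 4.36). The log2 fold change of KDR was -1.97 ± 0.97 with an adjusted p of 0.299, and -1.97 ± 0.16 with an adjusted p of 1.40e-05 without P-IWP2 replicate 5.

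The transcription factor ERG (chr21:38380027-38661780, minus strand) stood at 1.08 and 1.1 FPKM on Day 12 and at 0.10 and 0.16 FPKM on Day 16. The difference was 8.78-fold by counts (6.11 to 13), with a log2 fold change of -3.00 ± 0.98 and an adjusted p of 0.160. Without P-IWP2 replicate 5 the adjusted p of ERG was 0.000222. Among the secreted proteins, VWF (chr12:5948877-6124770, minus strand) was low throughout, at 0.23 and 0.25 FPKM on Day 12 and 0.05 and 0.07 FPKM on Day 16. These were 42 and 43 counts against 10 and 11, a log2 fold change of -1.92 ± 0.93 with an adjusted p of 0.293, or of 0.0250 without that library. EGFL7 (chr9:136658856-136672678, plus strand) stood at 6.14 and 6.96 FPKM on Day 12 and at 4.09 and 3.88 FPKM on Day 16. Its days did not overlap, but its log2 fold change of -0.60 ± 0.25 had an adjusted p of 0.222, and of 0.0566 without P-IWP2 replicate 5.

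**Figure D2:**
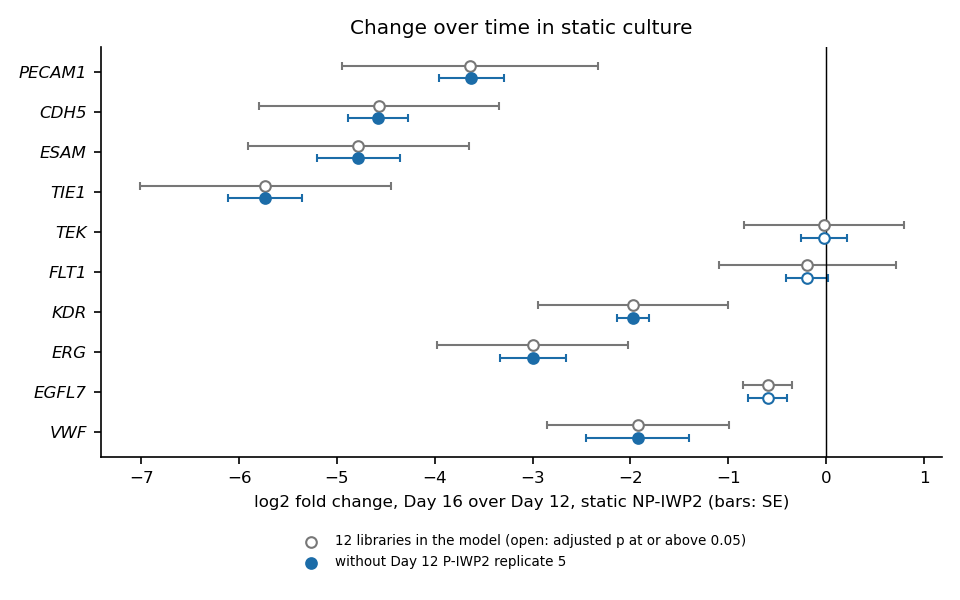
Log2 fold change, Day 16 over Day 12, of the 10 genes in static NP-IWP2 culture, with SE bars, in the model of 12 libraries (gray) and in the model without Day 12 P-IWP2 replicate 5 (blue). Filled points had an adjusted p under 0.05: the estimates are nearly equal in both models, and 7 genes are called in the second, all but TEK, FLT1 and EGFL7.

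Ratios within a library do not depend on how libraries are scaled. TEK was 2.43 and 1.80 times the FPKM of CDH5 in the static Day 12 libraries, and 73.4 and 34.7 times on Day 16. Against its partner TIE1, TEK was at 4.74 and 3.51 times on Day 12 and at 257 and 168 times on Day 16. FLT1 was near CDH5 on Day 12, at 1.18 and 1.01 times, and stood at 38.4 and 14.0 times on Day 16. These ratios rest on 5 to 28 counts of TIE1 or CDH5 in a Day 16 library. In both static Day 16 libraries, then, the 2 receptors TEK and FLT1 were present at several FPKM while CDH5, PECAM1, ESAM, TIE1, ERG and VWF together summed to 0.62 and 0.82 FPKM, against 13.1 and 16.8 FPKM on Day 12. Over the same days the fibroblast markers summed to 811 and 799 FPKM and then to 1402 and 1376 FPKM, and the hepatic markers to 638 and 449 FPKM and then to 923 and 759 FPKM. Their part in the levels of TEK and FLT1 was not tested.

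P-DF differed from static culture both in passaging and in the lack of IWP2, and their parts cannot be told apart in this comparison on either day. In P-DF cells on Day 12, 9 of the 10 genes stood below static culture, and KDR did not. In these P-DF cells on Day 12, both libraries lay below both static ones in those 9 genes, which 34.3% of all genes tested also did. With all libraries, edgeR called 6 of them (CDH5, FLT1, TEK, TIE1, ERG and EGFL7) lower, in a comparison with 4.01% of genes called and 3.32% called lower. DESeq2 called all 9 lower with the same libraries. Leaving out P-IWP2 replicate 5, all 9 were called lower, with 21.9% of genes called and 13.6% called lower, at an adjusted p from 6.58e-08 for TEK to 0.000409 for VWF. With any 1 of the 4 libraries compared left out of the model of 12, 0 genes were called. The calls of TEK and EGFL7 held in the other 16 of 20 alternatives, and those 2 alone were called with any 1 Day 16 library left out. The median log2 fold change of the 10 genes was -5.85, beside 0.00 for all genes.

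TEK stood at 0.10 and 0.01 FPKM in the P-DF Day 12 libraries, 8 counts against 1840 in the static ones. That is 207-fold (105 to 481), with a log2 fold change of -7.56 ± 1.27 and an adjusted p of 0.0167. FLT1 stood at 0.25 and 0.10 FPKM and was 33.9-fold lower (26.6 to 43.8), with a log2 fold change of -4.98 ± 1.14 and an adjusted p of 0.0446. Both genes were thus far below the static level on Day 12 already, with no overlap.

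CDH5 stood at 0.07 and 0.02 FPKM (126-fold lower, adjusted p = 0.0380), TIE1 at 0.02 and 0.03 FPKM (114-fold lower, adjusted p = 0.0413) and ERG at 0.01 FPKM in both P-DF libraries. ERG had 2 counts in all against 282, a ratio of 127 with a counting interval of 34.9 to 1054 (adjusted p = 0.0445). PECAM1 also had 2 counts in all, against 572, and VWF 2 against 85. Their adjusted p in edgeR of 0.0609 for PECAM1 and 0.0635 for VWF missed the threshold with 12 libraries, while DESeq2 called both. ESAM, at 0.23 and 0.11 FPKM, was 19.6-fold lower (edgeR adjusted p = 0.0651) and was also called by DESeq2. EGFL7 kept the most, at 2.33 and 2.13 FPKM, 2.93-fold lower (2.47 to 3.49), with a log2 fold change of -1.46 ± 0.25 and an adjusted p of 0.0185.

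KDR went a different way from the other 9 genes. It stood at 224 and 161 FPKM in P-DF cells on Day 12, beside 177 and 156 FPKM in static cells. The groups overlapped, both in FPKM and in TMM-scaled CPM. Its log2 fold change was 0.29 ± 0.93 (adjusted p = 0.884), and 0.29 ± 0.16 (adjusted p = 0.223) without P-IWP2 replicate 5. KDR made up 98.7% and 98.5% of the summed FPKM of the 10 genes in the P-DF Day 12 libraries, against 83.0% and 79.3% in the static ones. The remaining 9 genes summed to 3.03 and 2.43 FPKM in P-DF and to 36.3 and 40.8 FPKM in static culture.

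**Figure D3:**
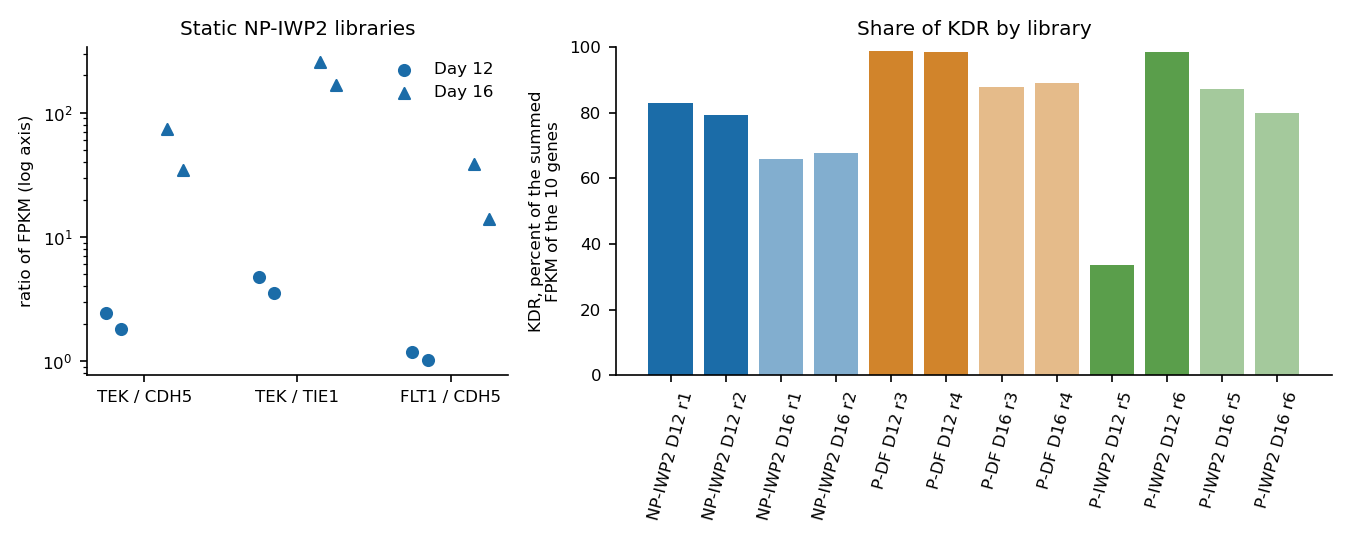
Left, ratio of the FPKM of TEK or FLT1 to that of CDH5 or TIE1 (log axis) in the 2 static libraries of each day. Right, KDR as a percent of the summed FPKM of the 10 genes in each library (r, replicate), which was 98.4% to 98.7% in 3 of the 4 passaged Day 12 libraries and 33.6% in Day 12 P-IWP2 replicate 5.

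The 2 P-IWP2 libraries of Day 12 disagreed. In replicate 6 the levels were like those of P-DF: CDH5 and TIE1 at 0.03 FPKM each, TEK at 0.04 FPKM, FLT1 at 0.28 FPKM, ESAM at 0.10 FPKM, ERG at 0.02 FPKM, EGFL7 at 3.26 FPKM, and PECAM1 and VWF at 0, with KDR at 233 FPKM. In replicate 5, KDR was lower than in replicate 6 and each of the other genes was higher. CDH5 stood there at 2.60 FPKM, TIE1 at 1.23 FPKM, PECAM1 at 1.18 FPKM, ESAM at 2.72 FPKM, ERG at 0.48 FPKM and VWF at 0.10 FPKM, and KDR at only 11.2 FPKM. The levels of CDH5, TIE1, PECAM1, ERG and VWF in replicate 5 were below both static Day 12 libraries and above all other passaged libraries, for VWF with 16 counts against 8 in the next of them.

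FLT1 in replicate 5, at 7.07 FPKM, was the highest of the 12 libraries, while TEK, at 1.45 FPKM, was well below the 10.05 to 11.48 FPKM of static culture. The TEK to CDH5 ratio of 0.558 in this library was lower than the 1.80 and 2.43 of the static Day 12 libraries. Its hepatic markers summed to 8.15 FPKM, near the 5.71 to 8.18 FPKM of the other passaged Day 12 libraries and unlike static culture. The angiopoietin gene ANGPT1, the ligand of TEK, stood at 11.01 FPKM in replicate 5 and at 0.28 FPKM in replicate 6.

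For P-IWP2 against static culture on Day 12, 0 of the 10 genes were called by edgeR with all libraries, beside 1.66% of all genes (1.33% lower), 4 had an unadjusted p under 0.05, and DESeq2 called 0. Without replicate 5, which leaves 1 P-IWP2 library assumed to vary like the other groups, 9 genes were called lower, all but KDR, with 15.0% of genes called and 9.57% called lower. KDR then had a log2 fold change of 0.57 ± 0.19 (adjusted p = 0.0635). Between P-IWP2 and P-DF on Day 12, edgeR called 0 of the 10 genes with or without replicate 5, as it did of all genes. The unadjusted p was under 0.05 for 8 of them with replicate 5 and for 0 without it, and DESeq2 called FLT1 and PECAM1 higher with it.

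On Day 16 all 10 genes were lower in passaged than in static cells. Both P-DF libraries lay below both static ones in 10 of 10 genes, as in 35.6% of all genes, and so did both P-IWP2 libraries, as in 34.6% of all genes. With all libraries, edgeR called 3 of the 10 (FLT1, TEK and EGFL7) lower in P-DF, with 15.3% of genes called and 9.86% called lower, and 2 (FLT1 and TEK) lower in P-IWP2, with 17.1% and 9.95%. Without Day 12 P-IWP2 replicate 5 it called 10 of 10 in P-DF, with 32.4% of genes called and 18.1% called lower, and 7 of 10 in P-IWP2, with 34.8% and 18.5%. TIE1, ESAM and VWF were the 3 that missed the threshold in P-IWP2 (adjusted p of 0.0812, 0.378 and 0.286). With 1 library left out of the model of 12, the number called was lowest, at 0, without either Day 16 library of P-DF for the first comparison and of P-IWP2 for the second, and 1 without either static Day 16 library for both. Both comparisons share the static libraries.

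TEK and FLT1 had the largest differences between static and passaged cells on Day 16 that passed the test in both models. TEK stood at 0 and 0.10 FPKM in P-DF cells and at 0.08 and 0.12 FPKM in P-IWP2, beside 10.3 and 10.1 FPKM in static cells. It was 185-fold lower in P-DF (97.4 to 406, adjusted p = 0.00624) and 101-fold lower in P-IWP2 (63.8 to 171, adjusted p = 0.00739). FLT1 stood at 0.18 and 0.14 FPKM in P-DF cells and at 0.14 and 0.08 FPKM in P-IWP2, 30.1-fold (adjusted p = 0.0245) and 43.8-fold (adjusted p = 0.0180) below the static level. These 2 genes, which kept their level in static culture, were at or below 0.18 FPKM in all 4 passaged libraries.

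The other junction and endothelial genes had few counts left in passaged cells. With all libraries, edgeR called 0 of these 6 (CDH5, PECAM1, ESAM, TIE1, ERG and VWF) on Day 16. DESeq2 called ERG lower in both passaged groups and PECAM1 lower in P-IWP2. CDH5 stood at 0.03 and 0.01 FPKM in P-DF cells and at 0.02 and 0.01 FPKM in P-IWP2, 4 and 3 counts against 44 in static cells. The ratio of static to P-DF was 10.7 (3.89 to 40.9, adjusted p = 0.269 with 12 libraries and 0.00205 without P-IWP2 replicate 5). PECAM1 had 1 count in P-DF and 0 in P-IWP2, against 44 in static culture, and ERG 0 in all 4 passaged libraries against 33. ERG was thus at least 10.7-fold lower in P-DF, taking 3 counts over the group as the limit (adjusted p = 0.0898 and 0.000445), and TIE1, at 0 against 11 counts, at least 3.56-fold lower (adjusted p = 0.314 and 0.0125).

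ESAM had 1 count in P-DF and 5 in P-IWP2 against 11 in static culture, and VWF 3 and 9 against 21. EGFL7 stood at 1.84 and 1.39 FPKM in P-DF cells and at 1.60 and 2.18 FPKM in P-IWP2, 2.50-fold (2.05 to 3.06) and 2.11-fold (1.76 to 2.53) below static cells. EGFL7 was called in P-DF (adjusted p = 0.0234) and missed the threshold in P-IWP2 (adjusted p = 0.0603), where it was called without P-IWP2 replicate 5 (adjusted p = 0.0112). KDR had not been lower after passaging on Day 12, apart from P-IWP2 replicate 5. On Day 16 it stood at 14.97 and 13.32 FPKM in P-DF cells and at 12.9 and 9.89 FPKM in P-IWP2, below the 39.3 and 39.2 FPKM of static cells. The difference of KDR was 2.79-fold in P-DF (adjusted p = 0.408, and 6.57e-05 without P-IWP2 replicate 5) and 3.46-fold in P-IWP2 (0.299 and 1.34e-05). Between P-IWP2 and P-DF on Day 16, edgeR called 0 of the 10 genes, with 0 at an unadjusted p under 0.05, and DESeq2 called 0. The edgeR count was 0 of all genes as well, and without Day 12 P-IWP2 replicate 5 still 0 of the 10, beside 2.49% of genes called and 0.843% called lower.

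**Figure D4:**
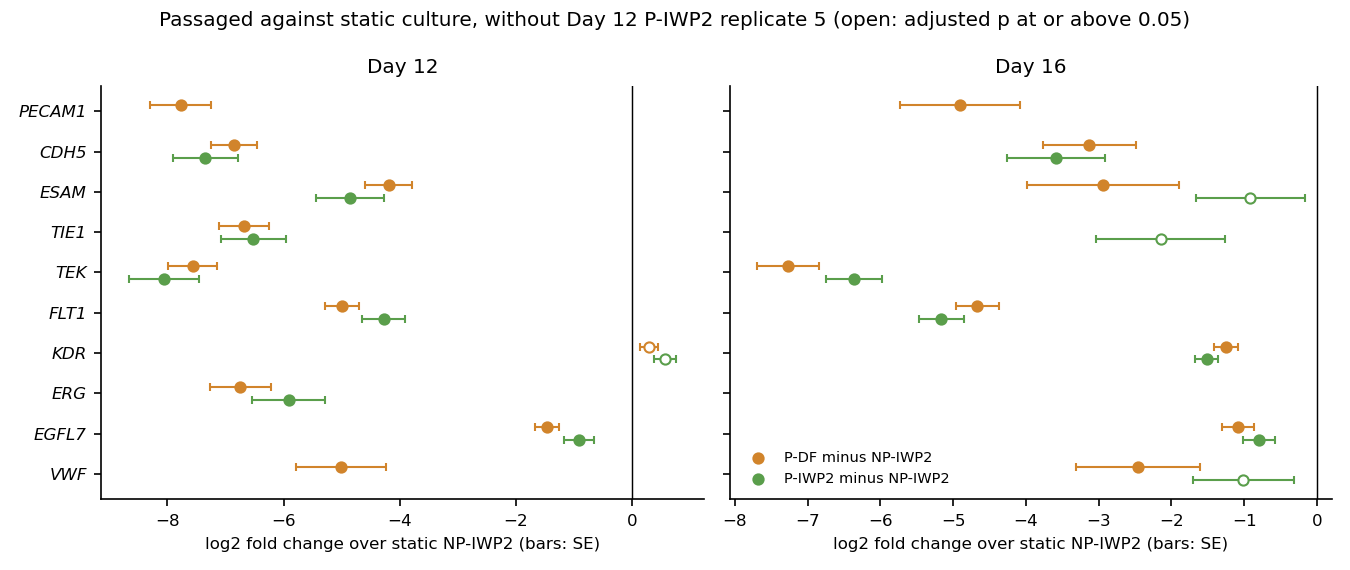
Log2 fold change of passaged over static NP-IWP2 cells (bars, SE) on Day 12 and Day 16, from the model without Day 12 P-IWP2 replicate 5, which leaves 1 P-IWP2 library on Day 12. Filled points had an adjusted p under 0.05, genes with 0 counts in the passaged group are not drawn, and KDR is the gene to the right of 0 on Day 12.

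Over time in P-DF cells, KDR had the highest level to start from and the smallest p of the 10 genes. It went from 224 and 161 FPKM to 14.97 and 13.32 FPKM in P-DF, 13.6-fold lower by counts (13.1 to 14.1), with a log2 fold change of -3.51 ± 1.03 and an adjusted p of 0.0527. With all libraries edgeR called 0 of the 10 genes in P-DF, beside 13.6% of genes called and 6.81% called lower. In the same test 1 gene (KDR) had an unadjusted p under 0.05, and DESeq2 called KDR. In the model without P-IWP2 replicate 5, KDR (adjusted p = 7.33e-08) and ESAM (adjusted p = 0.0160) fell, with 29.2% of genes called and 14.1% called lower. ESAM went from 10 and 5 counts to 1 and 0. Of the other 8 genes, 6 had at most 8 counts in P-DF on Day 12, FLT1 had a log2 fold change of 0.12 ± 1.2 and EGFL7 one of -0.21 ± 0.26.

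In P-IWP2, 7 genes (TIE1, FLT1, KDR, ESAM, ERG, CDH5 and PECAM1) were called lower on Day 16 than on Day 12, with 27.0% of genes called and 14.1% called lower. Both Day 16 libraries lay below both Day 12 libraries in 6 of the 10 genes, as in 30.5% of all genes, and in P-DF in 4 of the 10, as in 34.7% of all genes. These calls rest on single libraries: 9 were called without replicate 6 of Day 12, 0 without either P-IWP2 library of Day 16 and 1 to 5 without any 1 of the static or P-DF libraries. Without replicate 5 of Day 12 only KDR was called, with a log2 fold change of -4.06 ± 0.19 (adjusted p = 1.33e-07), beside 23.7% of genes called and 11.3% called lower. With replicate 6 left out instead, KDR was higher on Day 16, by 0.56 on the log2 scale.

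Whether the change over time differed between treatments was tested as an interaction. With all libraries, 0 of the 10 genes were called by edgeR in P-DF or P-IWP2 against static culture, beside 0.482% (0.308% lower) and 1.84% (1.06% lower) of all genes. The unadjusted p was under 0.05 for 0 genes in P-DF and for 1 (FLT1) in P-IWP2, and DESeq2 called 0 in both. Without P-IWP2 replicate 5, KDR fell by 1.53 ± 0.23 more on the log2 scale in P-DF than in static culture (adjusted p = 0.00125) and by 2.08 ± 0.25 more in P-IWP2 (adjusted p = 0.000289), beside 7.62% (4.05% lower) and 7.89% (4.03% lower) of genes called. In P-IWP2, 2 further genes were called there, in the other direction: ESAM at 3.94 ± 1.11 (adjusted p = 0.0474) and VWF at 7.23 ± 1.98 (adjusted p = 0.0415), which has 0 counts in the single P-IWP2 library of Day 12, so that its value is no bound. On Day 12, KDR in P-DF overlapped static culture. In P-IWP2 replicate 6 it stood at 233 FPKM, above the 177 and 156 FPKM of static culture. On Day 16 KDR was lower in both passaged groups, which edgeR did not call with all libraries (adjusted p of 0.408 in P-DF and 0.299 in P-IWP2).

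Ordered by group mean, CDH5, PECAM1, TIE1, ERG and EGFL7 were highest in static culture on Day 12, followed by P-IWP2 on Day 12, through replicate 5, and static culture on Day 16. In TEK, FLT1 and VWF, both static groups came first. ESAM began like CDH5. The order of its P-DF mean of Day 12 (0.17 FPKM, 15 counts) and its static mean of Day 16 (0.11 FPKM, 11 counts) was not resolved, since their libraries overlapped. The order among the P-DF groups of both days and P-IWP2 on Day 16 was not resolved for PECAM1, CDH5, TIE1, TEK, ERG and VWF, which had at most 18 counts in each of these groups. KDR alone had its highest mean in P-DF on Day 12, and its 3 Day 16 groups held the 3 lowest means.

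The members were also compared with their own mean pattern over the 12 libraries, on the log2 scale, as a description. ERG correlated at 0.991 with the mean of the other 9, PECAM1 at 0.969, CDH5 at 0.966, TIE1 at 0.942 and EGFL7 at 0.940. ESAM was at 0.892, FLT1 at 0.886, VWF at 0.869, TEK at 0.829 and KDR at 0.203. The 12 libraries fall into static and passaged ones, so that a gene with a static to passaged difference correlates whatever its role. Among other genes, those with the pattern most like the 10 were F2RL2 (Pearson's r = 0.971, n = 12 libraries), CYP2T1P, PRKCSH, GULP1, TENM4, ERVH48-1, CD93, PLXNA2, KCTD6 and APLNR (0.950). CD93, a receptor on endothelial cells, averaged 5.16 FPKM on Day 12 and 0.12 FPKM on Day 16 in static culture and stood at 2.59 FPKM in P-IWP2 replicate 5. APLNR, the apelin receptor, averaged 13.4 and 1.25 FPKM and stood at 6.01 FPKM there. PRKCSH, in contrast, averaged 45.2 and 39.5 FPKM and was at 34.6 FPKM or less in the other passaged libraries.

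Other genes of the endothelium were read from the same comparison in static culture. Of 30 further pan-endothelial genes, 28 were tested, and their median log2 fold change from Day 12 to Day 16 was -2.48. With all libraries 2 fell and 0 rose, beside 1.10% of all genes lower and 0.877% higher, and without P-IWP2 replicate 5, 23 fell and 1 rose, beside 7.91% lower and 9.23% higher. The same shares stand beside the counts of the lists that follow. STAB1, a scavenger receptor, went from a mean of 1.19 FPKM ± 0.15 (SD, n = 2) to 0.045 FPKM ± 0.0071 (adjusted p = 0.0426), and the tight junction gene CLDN5 from 1.07 FPKM ± 0.39 to 0 in both libraries (adjusted p = 0.0488). The gene that rose without replicate 5 was CAV1, a protein of membrane pits in many cell types, from 1.5 to 6.79 FPKM (adjusted p = 0.0139). PLVAP, a protein of endothelial diaphragms, fell in that model from 22.1 to 12.6 FPKM (adjusted p = 0.0305) and RAMP2 stood at 12.0 and 11.1 FPKM (adjusted p = 0.983). CAV1, PLVAP and RAMP2 were picked after their values were seen.

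Endothelial transcription factors were divided. Of 18 genes, 17 were tested, and LMO2, a partner of TAL1 in blood and endothelial progenitors, was the only one called with all libraries, from 6.07 FPKM ± 0.50 to 1.68 FPKM ± 0.17 (log2 fold change -1.74 ± 0.27, adjusted p = 0.0197). Without P-IWP2 replicate 5, 7 of 18 fell and 4 rose, with a median of 0.19. SOX17, an arterial factor, was among the 7, from 1.91 to 0.22 FPKM (adjusted p = 0.00169), and ETS1, which many cell types express, among the 4, from 12.1 to 21.4 FPKM (adjusted p = 0.00994). FLI1, the closest relative of ERG, stood at 1.61 and 1.32 FPKM (adjusted p = 0.721) while ERG fell. SOX17, ETS1 and FLI1 were picked after their values were seen.

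Of the ligands of the member receptors, VEGFA, VEGFB and VEGFC averaged at least 6.17 FPKM in every group, and VEGFD, ANGPT2 and ANGPT4 at most 0.26 FPKM. VEGFC, the ligand of FLT4 and KDR, was called lower on Day 16 in static culture, from 36.2 FPKM ± 1.5 to 18.6 FPKM ± 4.3 (log2 fold change -0.85 ± 0.17, adjusted p = 0.0390), 1 of 7 ligand genes tested. VEGFA, the main ligand of KDR and FLT1, stood at 21.2 and 14.7 FPKM (adjusted p = 0.142, and 0.0230 without P-IWP2 replicate 5). On Day 16 the mean of VEGFA was 12.3 FPKM in P-DF cells, and 11.6 FPKM with IWP2 after passaging. Of 7 co-receptors and related receptors, FLT4, the receptor of lymphatic endothelium, was called, from 1.07 FPKM ± 0.31 to 0.015 FPKM ± 0.0071 (log2 fold change -5.86 ± 1.17, adjusted p = 0.0421), and 4 fell without P-IWP2 replicate 5.

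Among 10 Notch and arterial genes, 9 were tested. GJA4, an arterial connexin, was called lower on Day 16, from 1.40 FPKM ± 0.45 to 0.095 FPKM ± 0.035 (adjusted p = 0.0477), and without P-IWP2 replicate 5, 4 fell and 3 rose. DLL4, the endothelial Notch ligand, was among the 4, from 1.49 to 0.07 FPKM. Of 8 endocardial genes, HAPLN1, a matrix protein of the cardiac jelly, was called lower, from 23.1 FPKM ± 3.5 to 4.73 FPKM ± 0.40 (adjusted p = 0.0413). Without P-IWP2 replicate 5, 1 fell and 3 rose, with a median of 0.13, which is unlike the median of the 10 members. VEGFA, VEGFB, VEGFD, ANGPT1, ANGPT2, ANGPT4 and DLL4 were picked after their values were seen.

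**Figure D5:**
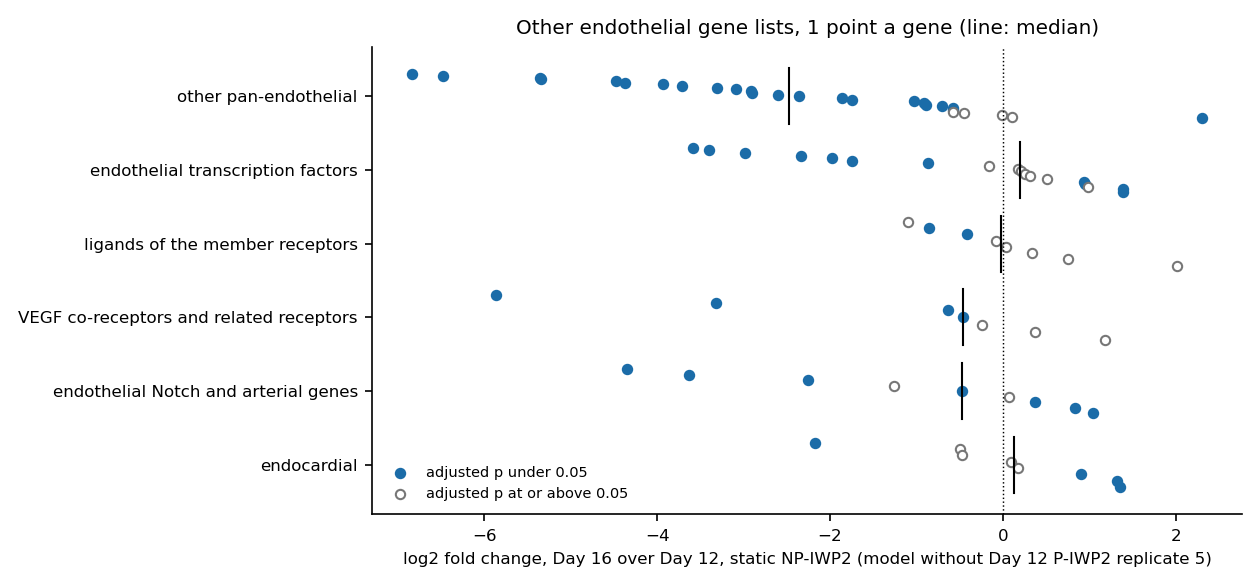
Log2 fold change, Day 16 over Day 12, in static culture for the other endothelial gene lists, 1 point a gene, from the model without Day 12 P-IWP2 replicate 5. The pan-endothelial genes lie mostly to the left of 0 (23 of 28 called lower), the transcription factors on both sides (7 lower and 4 higher), and CLDN5, at 0 in both Day 16 libraries, is not drawn.

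Markers of other cell types that could carry some of the 10 genes were read from the same libraries. Blood and platelet markers were low: 15 genes summed to 0.75 to 2.83 FPKM in each library, with PF4 and HBG1 at 0 in all 12 and PTPRC at 0.01 FPKM or less. GP1BA held most of this sum, at 1.67 FPKM ± 0.05 in static Day 12 and 1.11 FPKM ± 0.18 in static Day 16 libraries, and GATA1 averaged 0.25 FPKM or less in every group. The 9 mural genes, of the cells that wrap vessels, summed to 208 and 179 FPKM on static Day 12 and to 404 and 262 FPKM on Day 16, and ABCC9 was called higher (0.24 FPKM ± 0.014 to 0.69 FPKM ± 0.050, adjusted p = 0.0477). LUM, a fibroblast proteoglycan, rose from 85.4 FPKM ± 17.3 to 170 FPKM ± 18.2 (adjusted p = 0.0299), ALB of hepatic cells from 0.41 FPKM ± 0.11 to 6.85 FPKM ± 2.31 (adjusted p = 0.00870) and ALDH1A2 of epicardial cells from 0.03 FPKM ± 0.014 to 0.63 FPKM ± 0.24 (adjusted p = 0.0148).

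With all libraries, 1 gene was called higher and 0 lower in each of the mural, fibroblast, hepatic and epicardial lists in static culture. By direction alone, 0 of 8 hepatic, 1 of 7 fibroblast and 1 of 7 epicardial genes tested had a log2 fold change below 0. Without P-IWP2 replicate 5, 3 mural, 5 fibroblast, 6 hepatic and 4 epicardial genes rose and 0 fell. Cardiomyocyte markers summed to 5121 and 4518 FPKM on static Day 12 and to 3479 and 2800 FPKM on Day 16. With all libraries 0 of the 10 were called, with MYL7 at 2797 FPKM ± 226 and 1705 FPKM ± 186 and MYH7 at 46.2 FPKM ± 11.7 and 523 FPKM ± 243. Without P-IWP2 replicate 5, 2 rose and 2 fell, with MYH7 higher (adjusted p = 1.80e-05) and MYL7 lower (adjusted p = 0.0108). Of 6 pluripotency genes, LIN28A fell from 17.4 FPKM ± 1.8 to 3.70 FPKM ± 0.38 (adjusted p = 0.0293), and NANOG and POU5F1 averaged 0.045 FPKM or less in every group. PF4, HBG1, PTPRC, NANOG and POU5F1 were picked for what they mark, outside the rule for named genes. In passaged libraries other than P-IWP2 replicate 5, fibroblast markers summed to 26.7 to 47.4 FPKM and hepatic markers to 5.71 to 20.1 FPKM. Apart from KDR on Day 12, the 10 genes thus lay below static culture where these markers were low, and the part of either in the other was not tested. On Day 12 the 30 further pan-endothelial genes summed to 47.9 and 50.1 FPKM in P-DF, beside 104 and 121 FPKM in static culture. On Day 16 they summed to 75.8 and 80.8 FPKM in P-DF and 62.0 and 72.3 FPKM in P-IWP2, beside 65.9 and 66.7 FPKM in static culture. Of the 28 tested, edgeR called 6 lower and 2 higher in P-DF on Day 16 with all libraries, beside 15.3% of genes called and 9.86% called lower. In P-IWP2 it called 7 lower and 2 higher, beside 17.1% of genes called and 9.95% called lower. The median log2 fold change of the 28 was -2.22 in P-DF, with 24 below 0, and -2.075 in P-IWP2, with 22 below 0. The sums thus do not show the direction of most of these genes.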

How the data were processed

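RNA-seq was done on 12 libraries of H1 cells, 2 per treatment and day. The authors deposited raw read counts per gene and FPKM values computed from them. Dividing the deposited counts by exon length and by the library's total gave the FPKM back within 0.005. The submitters' processing notes name cutadapt 1.9.1, HISAT2 2.0.1, HTSeq 0.6.1, DESeq2 and the hg38 genome build, while the labelled library kit is one for long reads. Whether counting used strand is not given in the sources used here.

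Counts were tested with edgeR 4.0.16 (quasi-likelihood test, TMM scaling, filterByExpr) in R 4.3.3, in 1 model of 6 groups, with Benjamini-Hochberg adjustment over 19505 genes and a threshold of 0.05. DESeq2 1.42.0 and limma 3.58.1 (on log2 FPKM, genes with a mean FPKM of at least 1 unless stated) were alternatives. The scripts were tested on simulated data. Count folds were taken over summed counts of a group, scaled by total counts, with exact 95% intervals that cover counting error only. With a group at 0, the limit was 3 counts over the group. A total of 20417 genes had no symbol, and 0 columns belonged to other samples.

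All 10 genes were named. From each other list, the genes named were those called in static culture over time, or the 2 with the highest FPKM where none was called, and any gene picked otherwise is said to be. The members and lists were chosen with earlier results of these data known. Promoter sequences were not used here for PECAM1, CDH5, ESAM and VWF, and protein sequences were not used.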

Additional observations from a re-analysis of the deposited data

Results flagged for a closer look

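The change of KDR, the main VEGF receptor, from Day 12 to Day 16 differed between passaged and static cells when tested as an interaction in the model without Day 12 P-IWP2 replicate 5. The difference was -1.53 ± 0.23 (SE) on the log2 scale for P-DF (adjusted p = 0.00125, edgeR), with both Day 16 libraries below both Day 12 libraries in P-DF and in static culture, and -2.08 ± 0.25 for P-IWP2 (adjusted p = 0.000289), where Day 12 was 1 library. With all 12 libraries neither passed, at -1.54 ± 1.33 (adjusted p = 0.695) and -1.14 ± 1.33 (adjusted p = 0.658). ESAM, of the tight junctions, had an interaction of 3.94 ± 1.11 in P-IWP2 in the model without that library (adjusted p = 0.0474) and 0.41 ± 2.01 with it (adjusted p = 0.932). The value of ESAM rests on 5 counts in the single P-IWP2 library of Day 12 and 5 in those of Day 16, against 326 and 11 in static culture.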

How the results depend on the processing

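The numbers of the 10 genes called depended on the setting in each comparison but P-IWP2 against P-DF on Day 16. In static culture over time they were 3 by DESeq2, 7 without the filter on low counts, 1 by limma with a pseudocount of 1 and 2 by limma without its filter, 8 with only the groups compared and 2 with the replicate number as a block. In P-DF over time they were 1 by DESeq2, with total counts, by limma with a pseudocount of 1 or 0.1 and with only the groups compared, and 2 without the filter. In P-IWP2 over time they were 1 in each limma setting and 0 with only the groups compared. For P-DF against static culture on Day 12 they were 9 by DESeq2, and 3 and 2 by limma with a pseudocount of 1 and 0.1. On Day 16 they were 4 by DESeq2, 10 without the filter and 7 with only the groups compared. For P-IWP2 against static culture they were 8 without the filter and 1 by limma with a pseudocount of 1, filtered or not, on Day 12, and on Day 16 4 by DESeq2, 6 without the filter, 1 by limma without its filter and 7 with only the groups compared. For P-IWP2 against P-DF on Day 12 they were 2 by DESeq2 and 8 without the filter. For the interactions they were 2 without the filter and 1 with only the groups compared in P-DF, and 5 without the filter in P-IWP2. Limma's filter left 5 of the 10 genes. The cause was not tested.

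With 1 library left out, the number called ranged from 0 to 7 in static culture over time, 0 to 2 in P-DF over time, 0 to 9 in P-IWP2 over time, 0 to 9 and 0 to 10 for P-DF against static culture on Day 12 and Day 16, 0 to 9 and 0 to 7 for P-IWP2 against static culture, 0 to 10 for P-IWP2 against P-DF on Day 12, 0 to 1 for the P-DF interaction and 0 to 6 for the P-IWP2 interaction. Of 107 log2 fold changes of single genes followed, 34 turned in at least 1 alternative, 26 of them only with a library left out and 19 without P-IWP2 replicate 5 or 6 of Day 12. By log2 fold change these ranged, leaving out 1 library, from -0.48 to 0.0457 for FLT1 and from -0.10 to 0.0505 for TEK in static culture, from -1.85 to 0.17 for CDH5, -0.44 to 0.94 for FLT1 and -5.13 to 2.20 for TEK in P-DF over time, and from -4.06 to 0.56 for KDR, -3.29 to 1.68 for TEK and -2.65 to 5.30 for VWF in P-IWP2 over time. VWF was 0.27 there without replicate 5 of Day 16. On Day 12 they ranged from -0.0039 to 0.52 for KDR in P-DF against static culture, from -4.05 to 0.57 for KDR and -4.28 to 0.12 for FLT1 in P-IWP2 against static culture, and from -4.34 to 0.28 for KDR, -0.49 to 5.74 for CDH5, -0.67 to 3.77 for ESAM, -3.22 to 6.75 for PECAM1, -0.49 to 5.51 for TEK and -3.22 to 3.6 for VWF in P-IWP2 against P-DF. In that comparison on Day 16 they ranged from -1.09 to 0.53 for CDH5, -0.011 to 0.54 for EGFL7, -0.0075 to 6.31 for TEK and -0.61 to 2.28 for VWF. The P-DF interaction ranged from -0.49 to 0.071 for ERG, which was 0.67 by DESeq2 and 0.87 by limma without its filter, -1.25 to 2.17 for ESAM, -0.24 to 1.13 for FLT1 and -5.11 to 2.22 for TEK. The P-IWP2 interaction of KDR ranged from -2.08 to 2.54 and was 0.20 with the replicate block. For the others it ranged from -2.39 to 3.76 for CDH5, -0.45 to 0.13 for EGFL7, -0.50 to 3.94 for ESAM, -6.36 to 3.63 for PECAM1, -3.27 to 1.7 for TEK, -3.19 to 4.38 for TIE1 and -0.73 to 7.23 for VWF. CDH5 was there 1.47 by limma with a pseudocount of 1, filtered or not, and 1.79 with 0.1, PECAM1 0.89 and ERG 0.59 by limma without its filter, and TIE1 -0.00745 by DESeq2 and -0.27 with total counts. In P-DF over time FLT1 was -0.13 with total counts, -0.0158 by limma with a pseudocount of 1, filtered or not, and -0.0295 with 0.1, and TEK was -0.00718 and -0.0688. Total counts in place of TMM moved the median of all genes by -0.11 in static culture, -0.26 in P-DF and -0.41 in P-IWP2 over time. The block left 0 genes called in P-DF over time and in both interactions and 5 in P-IWP2 over time. Libraries with equal numbers did not deviate together (correlations of 0.075, -0.002 and -0.031), so the numbers were not taken as pairs.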
